A study of Mus musculus with 12 samples.

Results

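The 10 iron handling genes, *Fth1*, *Ftl1*, *Tfrc*, *Slc40a1*, *Cp*, *Slc11a1*, *Slc11a2*, *Steap3*, *Steap4* and *Ireb2*, were followed in mouse bone marrow cultures exposed to indole-3-propionic acid (IPA), a tryptophan metabolite made by gut bacteria. They were taken by symbol from a table of RNA-seq read counts for 54532 genes, and all 10 were found. Bone marrow cells of wild-type (WT) C57BL/6 mice were grown in medium with GM-CSF and IL-6, cytokines that drive myeloid cells to develop. The cultures received vehicle (0.1 DMSO in the labels), 10 µM IPA or 50 µM IPA and were harvested at day 5, as 4 libraries for each of the 3 treatments. The labels do not say whether the 4 libraries of a group came from separate cultures or animals, so p-values measure only the spread between these libraries.

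Iron enters most cells bound to transferrin, through the transferrin receptor. It is released in endosomes, reduced by STEAP reductases and moved to the cytosol by divalent metal transporters, where it is used, stored in ferritin or exported by ferroportin. Macrophages of the spleen, liver and bone marrow recover iron from old red cells and return it to the blood. The iron regulatory proteins bind hairpins called iron-responsive elements (IREs) when iron is scarce. Binding near the start of a messenger RNA blocks its translation, and binding after the coding sequence slows its decay.

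The IREs are shown because they mark which of the 10 transcripts carry this switch and on which side of the coding sequence. A search of the untranslated regions (UTRs) of GENCODE M21 transcripts on mouse build GRCm38 used a C, any 5 bases, the loop CAGTG and a last base other than G, with the 5 bases able to pair across the loop. It found 8 elements in 5 of the 10 genes. Each is given as 30 bases, 5′ to 3′ on the strand of the gene, with the loop in capitals.
*Fth1*, 5′ UTR, chr19:9982731-9982760, plus strand: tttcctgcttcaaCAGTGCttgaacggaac
*Ftl1*, 5′ UTR, chr7:45459779-45459808, minus strand: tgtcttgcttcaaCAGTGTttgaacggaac
*Slc40a1*, 5′ UTR, chr1:45925465-45925494, minus strand: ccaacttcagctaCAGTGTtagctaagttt
*Slc11a2*, 3′ UTR, chr15:100395153-100395182, minus strand: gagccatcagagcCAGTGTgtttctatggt
*Tfrc*, 3′ UTR, first of 4, chr16:32631218-32631247, plus strand: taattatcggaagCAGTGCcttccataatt
*Tfrc*, 3′ UTR, second, chr16:32631597-32631626, plus strand: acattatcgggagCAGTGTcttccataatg
*Tfrc*, 3′ UTR, the third, chr16:32631662-32631691, plus strand: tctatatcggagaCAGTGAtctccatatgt
*Tfrc*, 3′ UTR, the fourth, chr16:32631709-32631738, plus strand: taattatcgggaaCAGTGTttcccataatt

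All elements paired at 5 of 5 stem positions except that of *Slc11a2*, which paired at 4 of 5. Of 21901 protein-coding genes, 222 (1.01%) held a match with 5 pairs, and 8.05% held one with at least 4. A match is a description of the sequence, and binding of it was not measured here. The ferritins and ferroportin thus carried the element before the coding sequence, and *Tfrc* and *Slc11a2* after it.

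The libraries held 20451312 to 28038612 counted reads. Levels are given as CPM (reads of a gene scaled to a library of common size) after trimmed mean of M values (TMM) normalisation. Differences were tested with edgeR's quasi-likelihood test over 14894 genes above 0.5 CPM in at least 2 of the 12 libraries, with Benjamini-Hochberg adjustment over all of them and a threshold of 0.05. The median log2 fold change of all genes tested lay between -0.01 and 0.01 in the 3 comparisons. All 10 iron handling genes passed the filter, and *Steap4* passed it through the vehicle and 10 µM groups. Myeloid genes dominated the cultures, with *Lyz2* at a mean of 5303 CPM with vehicle. Erythroid markers, which matter here because red cell precursors use most of the body's iron, were close to absent. Their 9 markers in the table summed to 1.11 to 2.54 CPM per library, and the red cell anion exchanger *Slc4a1* had no read in any of the 12. In such bulk samples, fewer cells of a type and less RNA per cell cannot be told apart.

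With 50 µM IPA, 7 of the 10 genes differed from vehicle. *Fth1*, *Ftl1* and *Cp* were higher, and *Tfrc*, *Slc40a1*, *Steap3* and *Steap4* were lower. Over all genes tested, 13.5% were called in this comparison, 7% as higher and 6.5% as lower. The median log2 fold change of the 10 genes was -0.10, against 0.01 over all genes tested. With 10 µM IPA, 0 of the 10 genes passed edgeR's test, against 0.41% of all genes (0.329% higher and 0.0806% lower), and 4 of the 10 had an unadjusted p under 0.05, against 8.78% of all genes. Between 50 µM and 10 µM, 6 of the 10 were called, *Ftl1* and *Cp* as higher at 50 µM and *Tfrc*, *Slc40a1*, *Steap3* and *Steap4* as lower. Over all genes 15.4% were called between the doses, 7.52% as higher and 7.85% as lower. An unadjusted p under 0.05 was reached by 8 of the 10 at 50 µM against vehicle and by 7 between the doses, against 27.9% and 29.5% of all genes. The 3 comparisons share their libraries in pairs, so their values are given side by side and are not independent. The authors describe the higher dose as supraphysiological and report that it slightly lowered cell viability. The part of viability in the differences given here was not tested.

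**Figure D1:**
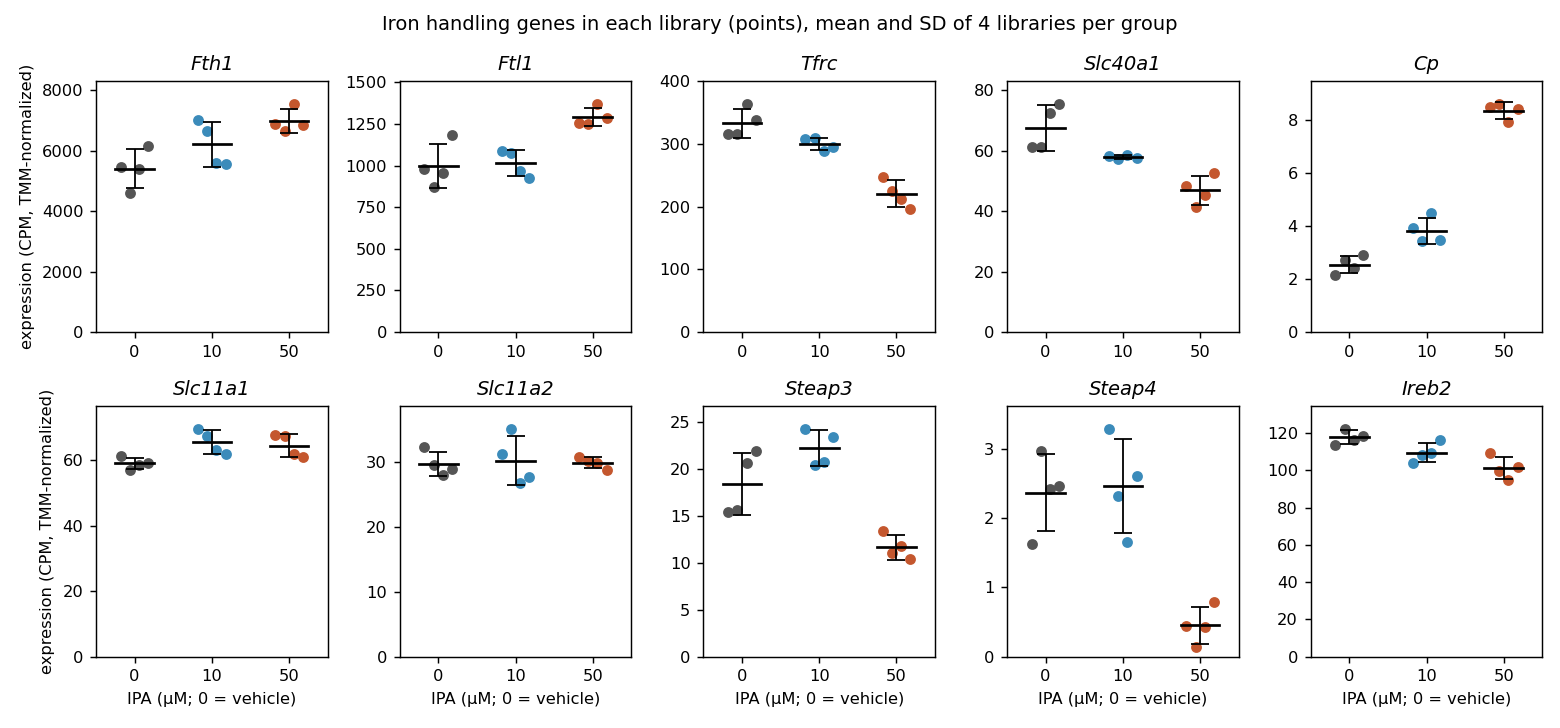
Expression of the 10 iron handling genes in CPM (vertical axes, each from 0) against IPA dose in µM (horizontal axes, 0 is vehicle). Points are libraries, and bars are the mean and SD of 4 libraries. The 50 µM points of *Fth1*, *Ftl1* and *Cp* lie above all vehicle points, and those of *Tfrc*, *Slc40a1*, *Steap3*, *Steap4* and *Ireb2* lie below them.

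Ferritin is the shell of heavy and light chains in which cells store iron. *Fth1* encodes the heavy chain, which oxidises iron as it enters, and lies on chromosome 19 from 9980598 to 9985098. It ranked 6 among all genes tested by mean CPM and took 0.62% of reads. *Fth1* stood at 5473, 4615, 5399 and 6156 CPM with vehicle. With 10 µM IPA it stood at 7018, 6646, 5611 and 5555 CPM, and with 50 µM IPA at 6887, 6650, 7551 and 6853 CPM. Every 50 µM library was above every vehicle library, while the 10 µM libraries fell into a higher and a lower pair and overlapped both other groups. The means were 5411 ± 630, 6207 ± 737 and 6985 ± 391 CPM (SD, n = 4 each). *Fth1* rose by 0.38 on the log2 scale at 50 µM (SE 0.09, 1.30-fold, adjusted p = 0.0132). At 10 µM the log2 fold change was 0.20 (SE 0.10, adjusted p = 0.630). Between the doses it was 0.17 (adjusted p = 0.144), and without 10 µM replicate 1, the library with the highest 10 µM value, it was 0.24 (adjusted p = 0.0361).

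*Ftl1* encodes the light chain, which helps iron to mineralise inside the shell, and lies on chromosome 7 from 45457944 to 45459884. Its levels were 982, 869, 955 and 1180 CPM with vehicle, and 1087, 1073, 965 and 928 CPM with 10 µM IPA. With 50 µM IPA they were 1253, 1252, 1370 and 1284 CPM. The 50 µM libraries stood above all 8 others, and the vehicle and 10 µM ranges overlapped. *Ftl1* rose by 0.38 (SE 0.09, adjusted p = 0.0142) at 50 µM against vehicle and by 0.35 (SE 0.07, adjusted p = 0.00178) against 10 µM. The first of these calls was lost without vehicle replicate 3 (log2 fold change 0.36, adjusted p = 0.0562). Against vehicle, 10 µM gave 0.02 (adjusted p = 0.975).

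Reads of near-identical ferritin copies can be split by counting. The pseudogene *Ftl1-ps1* held 865 to 2197 reads, or 3.27% to 7.32% of the *Ftl1* count, and its own log2 fold change at 50 µM was 0.66 (adjusted p = 0.0209), the same direction as *Ftl1*. The other ferritin copies held at most 54 reads in a library. Exons of *Ftl1* also overlap those of *Gm10252* on the other strand, which had 4 to 35 reads.

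The proportion of heavy to light chain reads was higher in the 10 µM libraries. *Fth1* reads per *Ftl1* read were 5.58, 5.31, 5.66 and 5.22 with vehicle. They were 6.46, 6.19, 5.82 and 5.99 with 10 µM IPA, and 5.50, 5.31, 5.51 and 5.34 with 50 µM IPA. All 10 µM libraries thus lay above all 8 others, which overlapped. Per kb of merged exon length the mean heavy to light ratio was 2.10 ± 0.08 with vehicle, 2.36 ± 0.11 at 10 µM and 2.09 ± 0.04 at 50 µM (SD, n = 4 each). The ratio is described without a test. Both chains together took a mean of 0.640% of reads with vehicle, 0.717% at 10 µM and 0.832% at 50 µM.

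**Figure D2:**
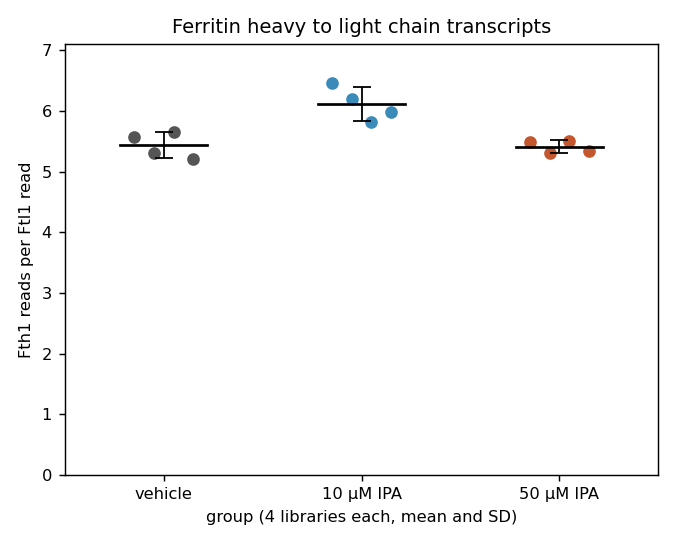
Ferritin heavy chain (*Fth1*) reads per light chain (*Ftl1*) read in each library (points), with the mean and SD of 4 libraries per group (bars). The 10 µM libraries, from 5.82 to 6.46, lie above all vehicle and 50 µM libraries.

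The transferrin receptor moved against the ferritins. *Tfrc* lies on chromosome 16 from 32608920 to 32632794 and carries the 4 IREs shown above after its coding sequence. With vehicle it stood at 315, 316, 364 and 339 CPM. It stood at 308, 310, 290 and 295 CPM with 10 µM IPA, and at 248, 225, 213 and 197 CPM with 50 µM IPA. The 3 groups did not overlap, and their means were 333 ± 23.2, 300 ± 9.77 and 221 ± 21.3 CPM (SD, n = 4 each). *Tfrc* fell by 0.59 at 50 µM against vehicle (SE 0.08, adjusted p = 0.000519), to 0.665 of the vehicle level, and by 0.44 against 10 µM (SE 0.07, adjusted p = 0.000515). The change at 10 µM was -0.15 (SE 0.06, adjusted p = 0.508).

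*Tfrc* is known to be high in dividing cells, so cycling markers are given beside it. Of 12 cycling markers, 6 were lower at 50 µM than with vehicle and 0 higher, against 6.5% and 7% of all genes. Their summed level ranged from 2447 to 3154 CPM with vehicle, from 2368 to 2758 CPM at 10 µM and from 2221 to 2419 CPM at 50 µM. Their part in the *Tfrc* result was not tested.

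*Slc40a1* encodes ferroportin, the only known iron exporter of mammalian cells, and lies on chromosome 1 from 45908068 to 45926523. Its levels were 61.1, 61.1, 72.6 and 75.5 CPM with vehicle and 58.2, 57.1, 58.5 and 57.6 CPM with 10 µM IPA. With 50 µM IPA they were 48.2, 41.5, 45.3 and 52.5 CPM. The groups stepped down without overlap, and the 10 µM libraries were the most alike (SD 0.616 CPM, against 7.57 with vehicle and 4.66 at 50 µM). *Slc40a1* fell by 0.52 at 50 µM against vehicle (SE 0.10, adjusted p = 0.0039). It fell by 0.30 against 10 µM (SE 0.08, adjusted p = 0.0142), a call lost without 50 µM replicate 2 (adjusted p = 0.0585). At 10 µM the change from vehicle was -0.22 (SE 0.08, adjusted p = 0.397).

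*Slc40a1* is known to be high in macrophages. The summed level of 9 macrophage markers ranged from 1726 to 1917 CPM with vehicle, from 2061 to 2262 CPM at 10 µM and from 1753 to 1874 CPM at 50 µM. Of these markers, 2 were called higher and 2 lower at 50 µM against vehicle, against 7% and 6.5% of all genes. The vehicle and 50 µM ranges of the sum overlapped while *Slc40a1* did not, and at 10 µM the sum lay higher while *Slc40a1* lay lower than with vehicle.

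*Cp* encodes ceruloplasmin, a copper ferroxidase that oxidises iron as it leaves through ferroportin. It lies on chromosome 3 from 19957054 to 20009145 and rose while ferroportin fell. Counts were low, at 57, 73, 54 and 73 reads with vehicle, 108, 71, 119 and 76 with 10 µM IPA and 174, 235, 163 and 200 with 50 µM IPA. In CPM these were 2.15, 2.71, 2.42 and 2.90, then 3.91, 3.44, 4.47 and 3.48, then 8.50, 8.61, 7.91 and 8.39. The groups stepped up without overlap. *Cp* rose by 1.72 at 50 µM against vehicle (SE 0.15, 3.29-fold, adjusted p = 1.05e-05) and by 1.12 against 10 µM (SE 0.14, 2.18-fold, adjusted p = 5.86e-05). At 10 µM the log2 fold change was 0.59 (SE 0.18, adjusted p = 0.265).

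Exons of *Cp* share 108 bases with *Hps3*, a protein-coding gene on the other strand with 1178 to 1925 reads in a library. The strand setting of the counting is not given in the sources used here, so reads of these bases may not have been told apart. *Hps3* stood at 60.3, 57.0 and 68.3 CPM (group means), with a log2 fold change of 0.19 (adjusted p = 0.250) at 50 µM against vehicle. Between the doses it rose by 0.27 (adjusted p = 0.0292), the same direction as *Cp*. Its exons cover 9103 bases.

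The 2 divalent metal transporters did not pass the test in any of the 3 comparisons. *Slc11a1* (NRAMP1), which pumps metal out of phagosomes of macrophages and neutrophils, stood at 61.2, 57.0, 58.6 and 59.1 CPM with vehicle. It stood at 69.7, 67.4, 63.0 and 61.8 CPM with 10 µM IPA and at 67.6, 67.5, 61.9 and 60.8 CPM with 50 µM IPA. All 10 µM libraries were above all vehicle libraries, by a log2 fold change of 0.15 (95% interval 0.01 to 0.29, adjusted p = 0.513). The 50 µM libraries overlapped those with vehicle, with a log2 fold change of 0.14 (95% interval -0.02 to 0.29, adjusted p = 0.241). *Slc11a2* (DMT1), which carries iron from endosomes to the cytosol, had group means of 29.7 ± 1.86, 30.1 ± 3.80 and 29.8 ± 0.836 CPM (SD, n = 4 each). Its log2 fold change at 50 µM was 0.02 (95% interval -0.15 to 0.18, adjusted p = 0.929).

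Both STEAP reductases were lower at 50 µM. *Steap3* encodes the main ferric reductase of transferrin endosomes in red cell precursors. Its levels were 15.4, 15.7, 20.6 and 21.9 CPM with vehicle, 24.3, 20.4, 20.7 and 23.4 CPM with 10 µM IPA and 13.4, 11.1, 11.7 and 10.4 CPM with 50 µM IPA. The vehicle and 10 µM libraries overlapped, and the 50 µM libraries lay below all of them. *Steap3* fell by 0.65 against vehicle (SE 0.14, adjusted p = 0.00715) and by 0.93 against 10 µM (SE 0.11, adjusted p = 2.68e-05). The change at 10 µM was 0.28 (SE 0.13, adjusted p = 0.572).

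*Steap4* encodes a metalloreductase known to be induced by inflammatory signals. It had 43, 80, 54 and 62 reads with vehicle, 91, 48, 44 and 57 with 10 µM IPA and 9, 4, 9 and 19 with 50 µM IPA. Even the highest 50 µM library, at 0.797 CPM, was below the lowest of the 8 others, at 1.63 CPM. *Steap4* fell by 2.37 at 50 µM against vehicle (95% interval -3.27 to -1.48, 0.193 of the vehicle level, adjusted p = 0.00212) and by 2.44 against 10 µM (adjusted p = 0.000771). The intervals were the widest of the 10 genes, at the lowest counts. At 10 µM the change was 0.06 (95% interval -0.51 to 0.64, adjusted p = 0.979).

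*Ireb2* encodes iron regulatory protein 2, which binds the IREs and is destroyed when iron is plentiful. Its level was 114, 122, 116 and 119 CPM with vehicle and 104, 108, 109 and 116 CPM with 10 µM IPA. With 50 µM IPA it was 109, 99.9, 94.95 and 102 CPM, below every vehicle library. The log2 fold change at 50 µM was -0.21 (SE 0.07, 95% interval -0.36 to -0.06) and missed the threshold (adjusted p = 0.0618). It passed with DESeq2 (adjusted p = 0.0190), in a fit of all 12 libraries (0.0248), without vehicle replicate 4 (0.0496) and without 50 µM replicate 1 (0.0462). It did not pass in 6 of 8 fits that left out a library (highest adjusted p = 0.136). Nor did it pass in 5 of 7 other settings (highest adjusted p = 0.109). Between the doses the log2 fold change was -0.11 (adjusted p = 0.301), and at 10 µM it was -0.11 (adjusted p = 0.693).

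**Figure D3:**
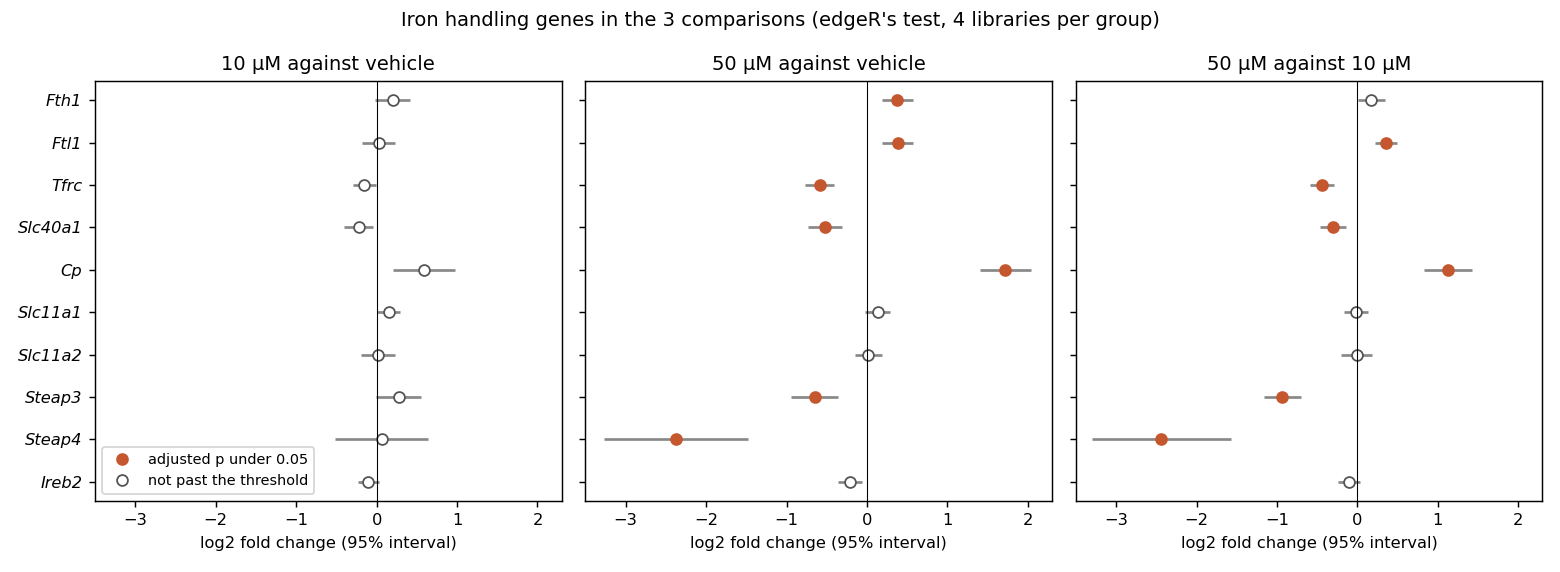
Log2 fold change (horizontal axes) of the 10 iron handling genes in the 3 comparisons, with 95% intervals from edgeR's fit of 8 libraries each. Filled points passed an adjusted p of 0.05, which were 0 genes at 10 µM against vehicle, 7 at 50 µM against vehicle and 6 between the doses.

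The groups did not overlap for 4 of the 10 genes at 10 µM against vehicle, namely *Cp* and *Slc11a1* (higher) and *Tfrc* and *Slc40a1* (lower), against 6.13% of all genes tested. At 50 µM against vehicle 8 of the 10 did not overlap, against 20% of all genes. Between the doses 6 did not, against 20.3%. For *Tfrc*, *Slc40a1* and *Cp* each dose lay beyond the one before it without overlap.

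Compared per kb of merged exon length, the levels with vehicle ran from *Fth1* (1560 CPM per kb) and *Ftl1* (744) through *Tfrc* (53.9), *Slc11a1* (15.9), *Ireb2* (12.4), *Slc40a1* (7.51), *Slc11a2* (4.67) and *Steap3* (3.22) to *Steap4* (0.751) and *Cp* (0.266). No neighbours in this order overlapped with vehicle. At 10 µM *Slc11a2* and *Steap3* overlapped, and at 50 µM *Slc40a1* and *Slc11a2* did. At 50 µM *Cp* (0.873 CPM per kb) had passed *Steap4* (0.144). Merged exons of *Fth1* (3469 bases) are longer than its longest principal transcript (1494 bases). With principal transcript lengths, chosen after seeing the data, the order with vehicle was the same, but *Ireb2* and *Slc40a1* overlapped, as did *Steap4* and *Cp*, and the mean of *Cp* was above that of *Steap4* at 10 µM, with ranges that overlapped.

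**Figure D4:**
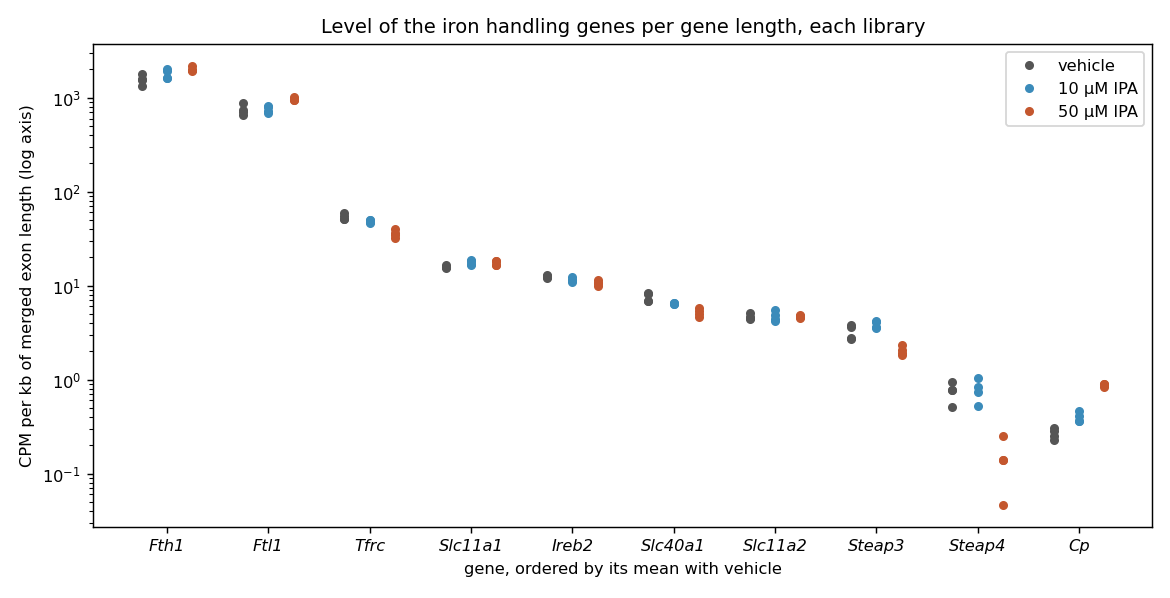
Level of each gene in CPM per kb of merged exon length (vertical log axis) in each library, with genes ordered along the horizontal axis by their vehicle mean. Ferritin transcripts lie far above the rest, and *Steap4* and *Cp* change places between vehicle and 50 µM.

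Beyond the 10 genes, further genes of iron and heme biology were listed by 74 symbols, which matched 71 genes in the table, of which 56 were tested. The symbols without a match, *Hjv*, *Mfsd7b* and *Fdx2*, are other names of *Hfe2*, *Flvcr1* and *Fdx1l*, which were matched. At 50 µM against vehicle, 14 of the 56 were called (25%), 6 higher and 8 lower, against 13.5% of all genes, a difference in shares that was not tested. Their median log2 fold change was 0.01, as over all genes tested. Without vehicle replicate 3 the count was 9. Between the doses 15 of the 56 were called, 4 higher and 11 lower, against 15.4% of all genes (7.52% higher and 7.85% lower). At 10 µM against vehicle 1 was called, against 0.41% of all genes.

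**Figure D5:**
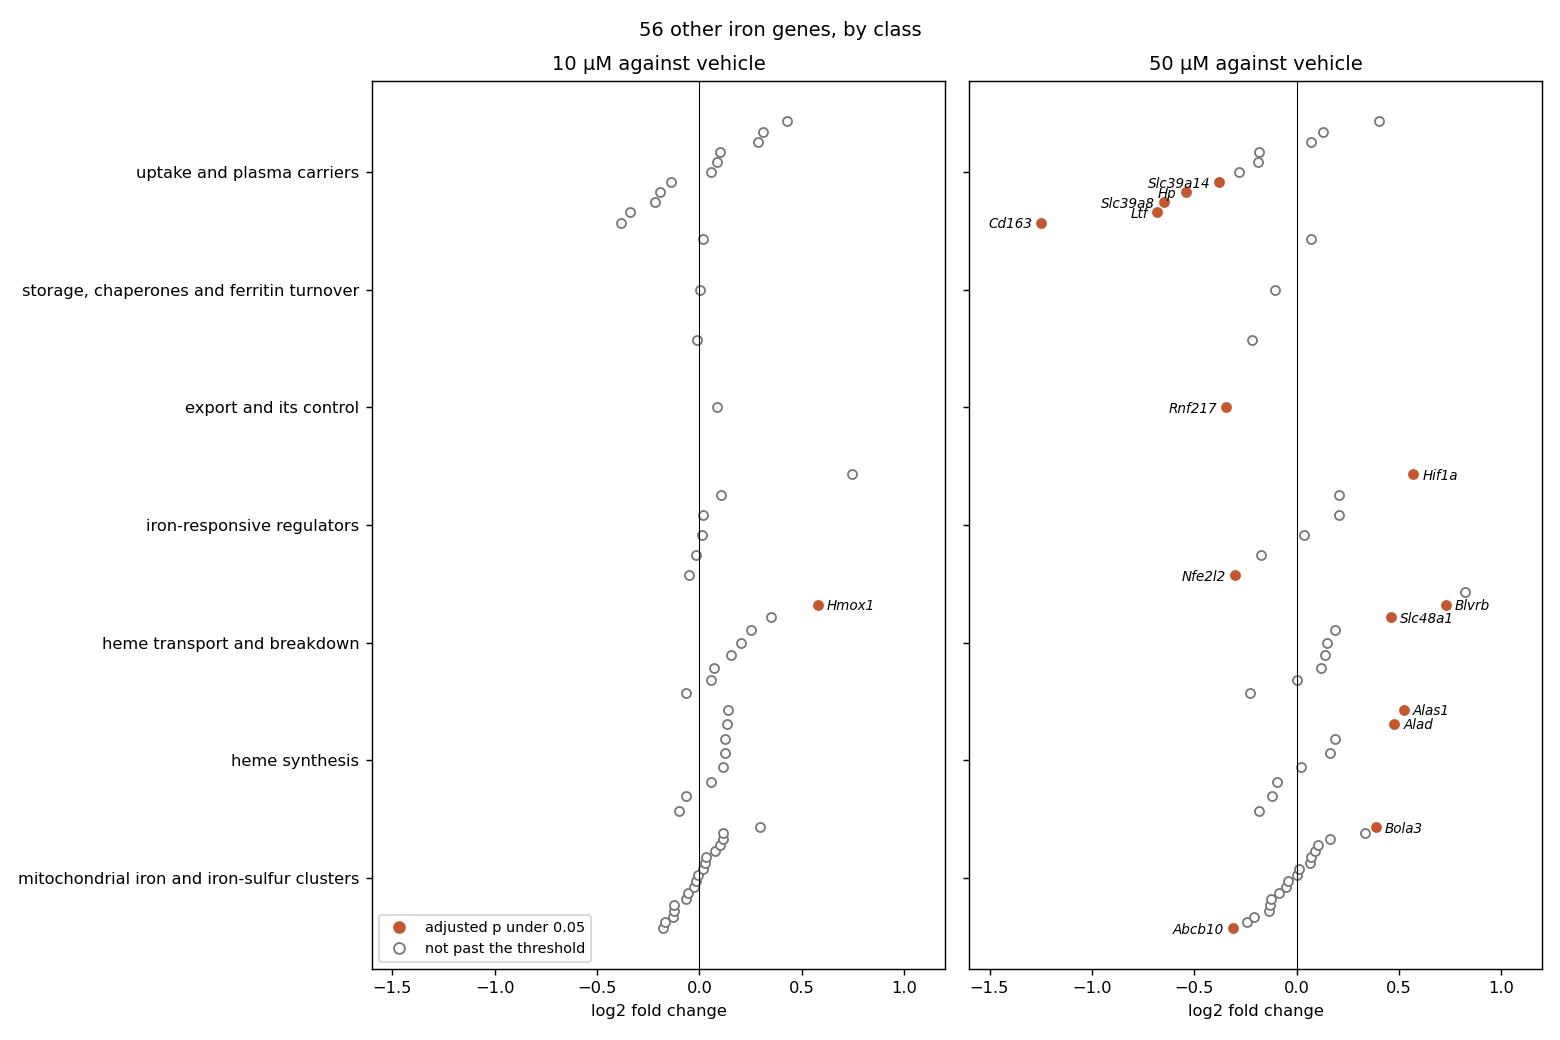
Log2 fold change (horizontal axes) of 56 other iron and heme genes, grouped by class on the vertical axis, at 10 µM (left) and 50 µM (right) against vehicle. Filled, named points passed an adjusted p of 0.05, which was *Hmox1* at 10 µM and 14 genes at 50 µM.

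Among uptake and plasma carrier genes, 5 of 11 fell at 50 µM and 0 rose, against 6.5% of all genes lower and 7% higher. *Cd163*, the macrophage receptor for hemoglobin bound to haptoglobin, fell by 1.25, from a mean of 2.99 to 1.25 CPM (adjusted p = 0.00371). *Ltf*, the iron-binding lactoferrin of neutrophil granules, fell by 0.68, from 3947 to 2449 CPM (adjusted p = 0.000335). *Hp*, haptoglobin itself, fell by 0.54 (adjusted p = 0.00238). *Slc39a8* and *Slc39a14*, metal importers that can carry iron not bound to transferrin, fell by 0.65 and 0.38 (adjusted p = 0.0278 and 0.0155), the first of them losing its call in 5 of 8 fits that left out a library.

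*Lrp1*, a receptor for heme bound to hemopexin, stood at means of 369, 497 and 302 CPM with vehicle, 10 µM and 50 µM. Against vehicle its log2 fold change was 0.43 at 10 µM (adjusted p = 0.322) and -0.28 at 50 µM (adjusted p = 0.231). Between the doses *Lrp1* fell by 0.71 (adjusted p = 0.000360). *Cd163*, *Hp*, *Slc39a14* and *Ltf* also fell between 10 and 50 µM, by 1.56, 0.60, 0.48 and 0.47 (largest adjusted p = 0.00261). *Hif1a* and *Blvrb* rose by 0.55 and 0.52 in that comparison (adjusted p = 5.01e-05 and 0.00693). *Lcn2*, which binds the iron carriers of bacteria, stood at means of 2431, 1924 and 2129 CPM. Its 10 µM libraries lay below all vehicle libraries, with a log2 fold change of -0.34 (adjusted p = 0.114), and at 50 µM against vehicle it was -0.18 (adjusted p = 0.221). *Trf*, transferrin, moved by 0.13 at 50 µM (adjusted p = 0.487). *Hfe*, which controls iron sensing with the transferrin receptors, moved by 0.40 (adjusted p = 0.0809). Of 8 neutrophil markers, 4 fell at 50 µM, and their summed level ranged from 15818 to 23070 CPM with vehicle, 14969 to 16911 CPM at 10 µM and 11763 to 17084 CPM at 50 µM. Monocyte markers fell in 3 of 6 cases, with sums of 2535 to 3229, 3673 to 4745 and 2215 to 2953 CPM. Markers of B cells, which make up little of the RNA, were called higher in 5 of 6 cases, with sums of 19.1 to 27.2 CPM with vehicle and 37.9 to 60.9 CPM at 50 µM. Of 4 megakaryocyte markers, 3 were tested and 2 were called higher, *Ppbp* and *Pf4*. *Itga2b* moved by 0.04 (adjusted p = 0.866), and *Gp1bb* had no read in any library. The sum of these markers ranged from 260 to 299 CPM with vehicle and from 332 to 383 CPM at 50 µM. These counts of markers called stand against 6.5% of all genes lower and 7% higher. The part of these cells in the *Ltf*, *Hp*, *Cd163* and *Lrp1* results was not tested.

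Among heme genes, 2 of 9 of transport and breakdown and 2 of 8 of synthesis were higher at 50 µM than with vehicle, and 0 were lower, against 7% of all genes higher and 6.5% lower. *Alas1*, the rate-limiting enzyme of heme synthesis outside red cells, rose by 0.52, from 771 to 1103 CPM (adjusted p = 0.000236). *Alad*, the next enzyme, rose by 0.48 (adjusted p = 0.0243), a call lost in 4 of 8 fits that left out a library. *Blvrb*, a biliverdin reductase, rose by 0.73, from 45.5 to 74.9 CPM (adjusted p = 0.00171). *Slc48a1*, which carries heme out of phagolysosomes, rose by 0.46 (adjusted p = 0.00195). *Alas2*, the red cell form of the synthesis enzyme, had 0 to 5 reads in a library.

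*Hmox1*, heme oxygenase 1, which frees iron from heme, was higher at 10 µM and not at 50 µM. Its levels were 157 to 226 CPM with vehicle, 259 to 300 CPM at 10 µM and 172 to 198 CPM at 50 µM. The 10 µM libraries lay above all others. *Hmox1* rose by 0.58 at 10 µM (SE 0.11, adjusted p = 0.0460), a call kept in only 1 of 8 fits that left out a library (highest adjusted p = 0.197). It fell by 0.58 between 10 and 50 µM (adjusted p = 2.90e-05), and the log2 fold change of 50 µM against vehicle was -0.000369 (adjusted p = 0.999).

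Of the 6 iron-responsive regulators, 2 were called at 50 µM against vehicle, *Hif1a* as higher and *Nfe2l2* as lower. Over all genes 13.5% were called, 7% as higher and 6.5% as lower. *Hif1a*, whose protein is destroyed by iron-dependent hydroxylases, rose by 0.57, from 255 to 376 CPM (adjusted p = 0.000102). *Nfe2l2* encodes NRF2, a regulator of antioxidant genes and of the ferritin genes, and fell by 0.30 (adjusted p = 0.00884). *Aco1*, iron regulatory protein 1, moved by 0.03 (adjusted p = 0.832), and *Fbxl5*, which marks iron regulatory protein 2 for destruction, by 0.21 (adjusted p = 0.107).

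*Ncoa4*, the receptor that sends ferritin to lysosomes, moved by -0.11 at 50 µM (adjusted p = 0.355). Of 3 tested genes of iron chaperones and ferritin turnover, 0 were called at 50 µM against vehicle, against 13.5% of all genes. *Rnf217*, a ubiquitin ligase that removes ferroportin, was the only one of 7 genes of export and its control to be tested, and it fell by 0.34 (adjusted p = 0.0286), with the call lost in 2 of 8 fits that left out a library. *Hamp*, the hormone hepcidin, had 0 to 4 reads in a library. Of 18 tested genes of mitochondrial iron and iron-sulfur clusters, 2 were called (11.1%), against 13.5% of all genes. *Bola3* rose by 0.39 (adjusted p = 0.0231) and *Abcb10* fell by 0.31 (adjusted p = 0.0188), with calls lost in 5 and 2 of 8 fits that left out a library.

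Promoter windows of RefSeq (GRCm38.p6, 250 bases before to 50 after a start site) were on hand for 8 of the 10 genes, in 14 windows. *Slc40a1* and *Slc11a2* had no window and were not searched. The windows were searched on both strands for ACGTG, the core of the hypoxia response element that also lies inside the E-box CACGTG, and for TGACNNNGC, the core of the antioxidant response element. ACGTG was found in windows of *Tfrc* alone, at 1 site that begins 228 bases before one start site and 2 bases before another, and 19.6% of all windows held these letters. TGACNNNGC was in none of the 14, and 12.4% of all windows held it.

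The genes whose levels over the 12 libraries were most like those of *Tfrc*, *Slc40a1* and *Fth1* were sought among the 8926 genes whose mean reached 10 CPM, by the root mean square difference of centred log2 levels. For *Tfrc* these were *Abhd5* (0.0796), *Pak1* (0.0806) and *Sfpq* (0.0882). For *Slc40a1* they were *Cited2* (0.0680), *Stk26* (0.0682) and *Rab27a* (0.0682). For *Fth1* they were *Psmd8* (0.0498), *Capg* (0.0572) and *Cd53* (0.0703). The spread of the 3 genes themselves on this scale was 0.269, 0.239 and 0.199.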

How the data were processed

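Bone marrow cultures with vehicle, 10 µM or 50 µM IPA were measured by stranded mRNA sequencing, with 4 libraries each. Per the labels and methods, the authors used Atropos for trimming, HISAT2 2.2.1 for alignment (mm10) and featureCounts 2.0.1 for counting by Ensembl gene. The strand setting of the counting is not given in the sources used here. The deposited values were raw read counts, with no normalization. The labels place the medium change at day 3, and the methods describe more frequent changes. The title of 10 µM replicate 3 repeats that of replicate 2, so its library name was used.

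The members and gene lists were chosen with earlier results of these data known. Genes over 0.5 CPM in at least 2 of 12 libraries were tested with edgeR 4.0.16 (R 4.3.3, TMM, quasi-likelihood, 8 libraries per comparison, no block). SEs are the log2 fold change divided by the root of F. Alternatives were DESeq2 1.42.0, limma-voom (limma 3.58.1), other size factors, other filters, all libraries, a replicate block and leaving out each library. The code was tested on simulated data.

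All 10 members were named. Of the other iron genes, up to 8 per comparison with the largest change past the threshold and a mean of at least 1 CPM were named, plus *Hmox1*, *Ncoa4*, *Aco1*, *Fbxl5*, *Hamp*, *Trf*, *Lcn2*, *Ltf*, *Alas2* and *Hfe*. *Slc48a1*, *Slc39a14*, *Nfe2l2*, *Rnf217*, *Bola3* and *Abcb10* were also named at 50 µM against vehicle, after their values were seen. Exon lengths came from GENCODE M21.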

Additional observations from a re-analysis of the deposited data

How the results depend on the processing

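At 10 µM against vehicle, 0 of the 10 iron handling genes were called in any of the 7 other settings or the 8 fits that left out a library. The count over all genes, 61, moved more. It was 250 with DESeq2, 150 with no filter on low counts, 118 with all 12 libraries in the fit, and 4 (without 10 µM replicate 2) to 122 (without vehicle replicate 4) when a library was left out. The 1 call among the other iron genes became 2 with DESeq2 and with no filter, and 0 to 1 when a library was left out. At 50 µM against vehicle, leaving out a library gave 1247 to 2689 genes, 6 to 8 of the 10 and 9 to 18 of the other iron genes. Between the doses it gave 5 to 7 of the 10 and 12 to 20 of the others. With at least 10 counts required in every library, *Steap4* was not tested, so 6 and 5 of the 10 were called in the comparisons with 50 µM.

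A replicate block gave 3 genes called at 10 µM, with 0 of the 10 and 0 other iron genes. It gave 1830, 7 and 14 at 50 µM against vehicle, and 2200, 6 and 15 between the doses. Deviations of libraries with the same number correlated at -0.62 to 0.34, so the numbers were not taken as pairs, and libraries did not all correlate best with their own number.

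Changes of sign occurred in 16 fits of members near 0, with no call on either side. At 10 µM *Ftl1* ranged from -0.0376 to 0.116, *Slc11a2* from -0.0586 to 0.0761 and *Steap4* from -0.116 to 0.216 when a library was left out. At 50 µM against vehicle *Slc11a2* ranged from -0.0108 to 0.0507. Between the doses *Slc11a1* ranged from -0.0458 to 0.016 and *Slc11a2* from -0.0619 to 0.069, and limma-voom gave *Slc11a2* 0.000901. With principal transcript lengths, chosen after seeing the data, the ferritin heavy to light ratio was 3.52, 3.96 and 3.51 for vehicle, 10 µM and 50 µM, with the same order of groups, and the number of overlapping neighbours with vehicle was 2 in place of 0. Where no cause is given here, the cause was not tested.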
